A study of Homo sapiens with 6 samples.

Results

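The genes described here are 10 transcription factors of myeloid differentiation, SPI1, CEBPA, CEBPB, CEBPD, CEBPE, GFI1, IRF8, KLF4, MYB and ID2. They were taken by symbol from the 32364 genes of the deposited Kasumi-1 table, and all 10 were found. Kasumi-1 is an established cell line of human acute myeloid leukemia (AML) in which the genes RUNX1 and RUNX1T1 are fused. Messenger RNA was sequenced in 6 libraries, of which 3 came from Kasumi-1 cells given 0.5 µM of the histone deacetylase (HDAC) inhibitor I13 for 48 h. The other 3 came from control cells kept for 48 h with DMSO, the solvent of I13, at its concentration in the I13 solution. The comparison asks whether the transcripts of the lineage factors differ after 48 h of I13, which was studied as an agent of differentiation. Values are FPKM, the fragments on a gene scaled to its exon length and to the depth of the library. This does not correct for differences in RNA makeup between libraries, and other scalings were run as alternatives. The study describes its experiments as independent repeats, while the labels of the 3 libraries of a group name no culture, and the p-values measure the spread between these libraries.

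Myeloid cells arise from progenitors in which few transcription factors set the lineage. SPI1 encodes PU.1, an ETS family factor needed for monocytes, granulocytes and B cells. The C/EBP factors are basic leucine zipper proteins, of which C/EBPα acts at the step from progenitor to granulocyte-monocyte precursor and C/EBPε late in granulocyte maturation. GFI1 is a zinc finger repressor that favours granulocytes, while IRF8 and KLF4 favour monocytes. MYB keeps progenitors dividing and is lowered when they mature, and ID2 binds and blocks E proteins. The fusion protein of RUNX1 in this type of leukemia binds RUNX sites and interferes with C/EBPα and PU.1.

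The recovered depth was between 15281052 and 17221345 fragments per library. Between replicates the chi-square per gene was 3.06 to 8.27, above the value of about 1 that counting alone would give. The first principal component (43.3% of the variance over the 4133 genes at a mean of 10 FPKM or more) placed control replicate 3 and I13 replicate 2 together and away from the rest, and the second (20.5%) separated control from I13. No batch is named in the labels. The cells carried their defining markers, with MPO between 10241 and 12450 FPKM, KIT between 196 and 236 FPKM and RUNX1T1 between 12.5 and 14.4 FPKM. The summed level of the lymphoid markers was between 6.98 and 8.004 FPKM in the control and between 6.94 and 8.45 FPKM in the I13 libraries, and that of the erythroid and megakaryocytic markers between 1.39 and 1.85 FPKM and between 1.30 and 2.38 FPKM. Of the stromal and epithelial markers, EPCAM alone was above the minimum level, at 20.8 to 26.5 FPKM, and COL1A1, COL1A2 and COL3A1 were at 0. Of 6 lymphoid markers tested, 1 had an unadjusted p under 0.05, CD3D, with 2 to 6 fragments per library (log2 fold change -0.90, adjusted p = 0.89 from limma), and 0 of the 3 erythroid and megakaryocytic markers tested did.

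The sequences before the transcription starts of 3 factors are shown because these factors lie at the ends of the range of levels, with GFI1 and MYB among the highest and KLF4 near 0, and because these windows hold matches to the motifs searched. RefSeq lists 12 starts for 8 of the 10 factors, while SPI1 and CEBPD were not matched. The 250 bases before a start were searched on both strands for TGTGGT (the RUNX core), GAGGAA (a core bound by PU.1), AAATC (the core bound by GFI1) and TTNCNNAA (the outline of a C/EBP site), and matches are in capitals. The windows are given 5′ to 3′ on the strand of the gene (GRCh38.p14) and overlap no exon of GENCODE 29. That of GFI1, before the second of its listed starts, is at chr1:92486100-92486349 on the minus strand inside the gene. That of MYB is at chr6:135181058-135181307 on the plus strand before the gene. That of KLF4 is at chr9:107489770-107490019 on the minus strand inside the gene.
GFI1: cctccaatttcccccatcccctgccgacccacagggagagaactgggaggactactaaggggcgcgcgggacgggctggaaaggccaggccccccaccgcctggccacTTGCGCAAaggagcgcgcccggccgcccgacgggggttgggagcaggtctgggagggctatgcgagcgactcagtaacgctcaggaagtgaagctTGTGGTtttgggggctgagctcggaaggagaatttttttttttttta
MYB: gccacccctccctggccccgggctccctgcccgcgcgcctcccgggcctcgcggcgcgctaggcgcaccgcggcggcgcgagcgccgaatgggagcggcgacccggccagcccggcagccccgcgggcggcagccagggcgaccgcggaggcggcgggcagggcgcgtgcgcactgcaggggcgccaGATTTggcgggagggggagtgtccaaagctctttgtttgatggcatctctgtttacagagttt
KLF4: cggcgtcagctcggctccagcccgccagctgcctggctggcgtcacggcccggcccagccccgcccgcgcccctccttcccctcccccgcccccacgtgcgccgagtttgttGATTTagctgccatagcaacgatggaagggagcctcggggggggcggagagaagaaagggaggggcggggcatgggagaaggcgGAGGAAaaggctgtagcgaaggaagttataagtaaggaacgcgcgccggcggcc

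The GFI1 window holds TGTGGT from 47 to 42 bases before the start and a match to TTNCNNAA, TTGCGCAA, from 142 to 135 bases before it. The MYB window holds 1 match, to AAATC on the other strand (GATTT). The KLF4 window holds GAGGAA from 54 to 49 bases before the start and a match to AAATC. These matches are a description of the letters and are common, since TGTGGT is in 11.0% of the 35116 promoter windows in the table, GAGGAA in 23.6%, AAATC in 29.9% and TTNCNNAA in 33.2%. Over the 12 windows of the 8 factors, TGTGGT was found in 2, GAGGAA in 3, AAATC in 2 and TTNCNNAA in 1. The windows of ID2, CEBPE, IRF8 and CEBPA and of the last listed starts of GFI1 and CEBPB overlap exons. The IRF8 match to TGTGGT and the GFI1 and CEBPE matches to GAGGAA are in such windows. The windows were rich in G and C (61.2 to 81.2% for the first listed start of GFI1, ID2, MYB, KLF4, CEBPA and CEBPB), apart from those of CEBPE (57.2%) and IRF8 (55.6%), where the median of all windows is 58%. The CEBPE and IRF8 windows lie inside these genes and overlap their exons, so these values do not describe sequence before the genes.

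The levels of the 10 factors spanned a wide range and kept nearly the same order in all libraries. GFI1 was the highest, with a mean of 159 FPKM in the control libraries, above 99.1% of the 18726 genes tested. SPI1 (114 FPKM) and MYB (61.2 FPKM) were above 98.6% and 97.0% of the genes. CEBPE (34.8 FPKM) and CEBPD (27.5 FPKM) followed, and then came CEBPB (6.99 FPKM), CEBPA (5.03 FPKM), ID2 (4.58 FPKM), IRF8 (1.31 FPKM) and KLF4 (0.0165 FPKM). Of the 9 neighbouring pairs in this order, 7 had ranges over the 6 libraries that did not overlap. CEBPB was above CEBPA in 5 of the 6 libraries and CEBPA was above ID2 in 3, so CEBPA could not be ordered against either. CEBPB was above ID2 in every library. GFI1 and CEBPE, which act in granulocytes, were abundant, and IRF8 and KLF4, which favour monocytes, were at a low level or near 0, with or without I13. The levels did not divide by lineage throughout. SPI1, needed for monocytes as well as granulocytes, was among the highest, and CEBPA, of the granulocyte-monocyte step, was at 5.03 FPKM in the control.

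**Figure D1:**
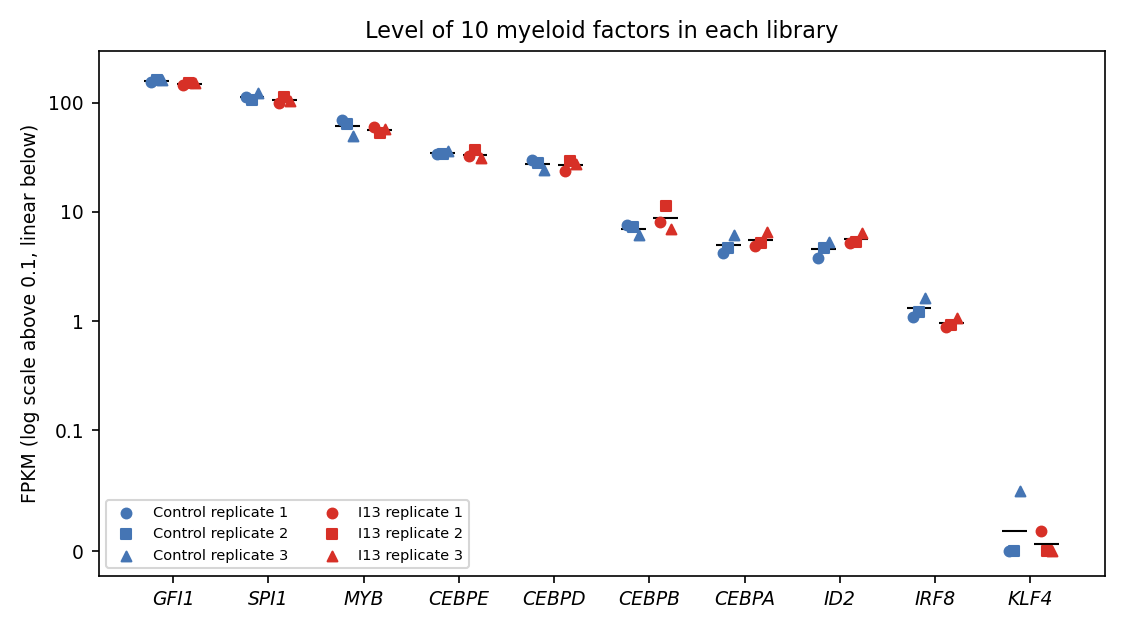
FPKM of the 10 factors (vertical axis, logarithmic above 0.1 and linear below) in the 3 control (blue) and 3 I13 (red) libraries, with a black line at each group mean. The groups lie close together for every factor, and the factors range from 159 FPKM (GFI1) to 0.0165 FPKM (KLF4) in the control mean.

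I13 and control were compared with limma on log2(FPKM + 0.1), a scale that makes fold changes of weakly expressed genes smaller. The test covered the 18726 genes whose mean reached 0.1 FPKM, and the Benjamini-Hochberg adjustment was made over all of them. KLF4 was under the minimum, so 9 of the 10 factors were tested. None of the 9 passed the adjusted p of 0.05, whose smallest value among them was 0.947 by limma, and 0 also had an unadjusted p under 0.05. Over all genes limma called 0.0% at the adjusted p and 5.14% at the unadjusted p, or 1.17% higher and 1.2% lower when the fold threshold of 0.58 was also asked (2.38% in all). By voom, limma's method for counts, on the recovered fragments, 0 of the 9 passed the adjusted p (0.0433% of 13845 genes did) and 2, IRF8 and ID2, had an unadjusted p under 0.05 (5.4% of genes did). The difference was positive for 3 factors and negative for 6. Its median on the log2 scale was -0.061 for the factors and 0.006 for all genes tested. The median of its absolute value was 0.109 for the factors and 0.067 for genes at a mean of 1 FPKM or more. In bulk RNA, fewer cells of a type and less RNA per cell cannot be told apart. The 95% intervals of all 9 factors lay between -0.85 and 0.71 on the log2 scale, so each of them left out a doubling and a halving with all 6 libraries. With a library left out this held for the other 8 factors but not for IRF8, whose lower bound was -1.03 without control replicate 1, -1.02 without control replicate 2 and -1.03 without I13 replicate 3. With all libraries 6 of the 9 intervals lay within 0.58, the fold threshold of the study, in both directions. The values of I13 and control did not overlap for 2 factors, GFI1 and IRF8, where this was found for 9.52% of all genes tested (4.88% higher and 4.64% lower with I13) and for 9.65% of those at a mean of 1 FPKM or more. Both factors were lower with I13.

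**Figure D2:**
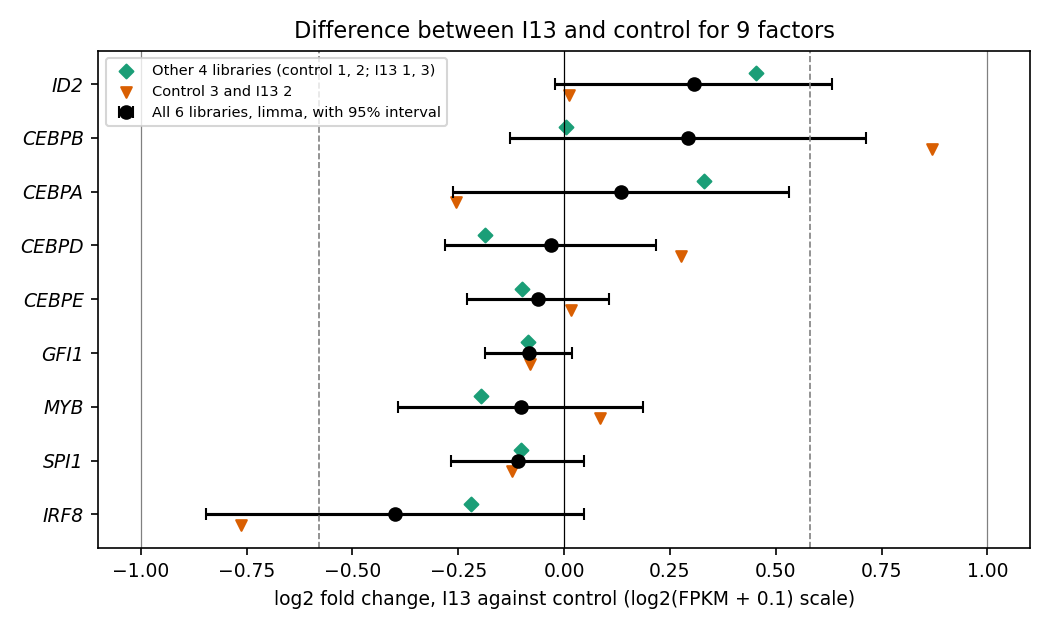
Log2 fold change of I13 against control for the 9 factors tested (horizontal axis), with the 95% interval of limma over 6 libraries (black), the value in the 4 libraries without control replicate 3 and I13 replicate 2 (green) and the value between these 2 libraries (orange). Solid vertical lines mark a doubling and a halving and dashed lines the threshold of 0.58; all intervals include 0 and stay inside the solid lines.

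SPI1 (ENSG00000066336) lies on chromosome 11 from 47354860 to 47378576. Its level was 113, 106 and 122 FPKM in control replicates 1, 2 and 3 and 99.99, 112 and 104 FPKM in I13 replicates 1, 2 and 3. The groups overlapped, since I13 replicate 2 was above control replicate 2. The mean was 114 ± 7.78 FPKM (SD, n = 3) in the control and 105 ± 6.02 FPKM (SD, n = 3) in the I13 libraries, and limma put the difference at -0.11 on the log2 scale (adjusted p = 0.983, standard error 0.067). The 95% interval ran from 0.831-fold to 1.03-fold. When limma had a covariate for control replicate 3 together with I13 replicate 2, the unadjusted p of SPI1 was 0.0257 and its adjusted p was 0.623. With this covariate, chosen because these 2 libraries stood apart together, 1427 of 18726 genes had an unadjusted p under 0.05. The difference of SPI1 was -0.10 (log2) within the other 4 libraries and -0.12 between these 2 libraries.

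The C/EBP genes were examined as a family. CEBPA, CEBPB and CEBPD are annotated with a single exon and CEBPE with 2. CEBPA (ENSG00000245848) on chromosome 19, from 33299934 to 33302564, had 4.22, 4.67 and 6.19 FPKM in the control and 4.82, 5.17 and 6.52 FPKM in the I13 libraries, from 191 to 270 fragments. Replicate 3 was the highest of both groups, and the groups overlapped. The difference was 0.14 on the log2 scale (standard error 0.17, adjusted p = 1.00 from limma). It was 0.33 within the 4 libraries and -0.26 between control replicate 3 and I13 replicate 2.

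CEBPB, a factor of inflammatory and emergency myelopoiesis (ENSG00000172216), lies on chromosome 20 from 50190734 to 50192689. It had 7.60, 7.27 and 6.11 FPKM in the control and 8.03, 11.2 and 6.93 FPKM in the I13 libraries. I13 replicate 2 was the highest, while I13 replicate 3 was below 2 of the control libraries. I13 and control differed by 0.29 on the log2 scale (standard error 0.18, adjusted p = 0.983 from limma), and it was 0.097 without I13 replicate 2. Within the 4 libraries it was 0.004, and between control replicate 3 and I13 replicate 2 it was 0.87.

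CEBPD, which is induced by cytokines (ENSG00000221869), lies on chromosome 8 from 47736909 to 47739086. It had 30.1, 28.2 and 24.1 FPKM in the control and 23.7, 29.3 and 27.6 FPKM in the I13 libraries, and the ranges of the groups overlapped over most of their width. Its log2 fold change was -0.03 (standard error 0.11, adjusted p = 1.00 from limma), with an interval from 0.823-fold to 1.16-fold. CEBPE (ENSG00000092067) lies on chromosome 14 from 23117304 to 23119616. It had 34.0, 34.1 and 36.3 FPKM in the control and 32.3, 36.8 and 31.2 FPKM in the I13 libraries. The highest library of each group was one of the pair that stood apart, and the groups overlapped. The log2 fold change of CEBPE was -0.06 (standard error 0.071, adjusted p = 0.995 from limma), with an interval from 0.854-fold to 1.08-fold. Its unadjusted p was 0.039 without I13 replicate 2 and 0.032 within the 4 libraries, where the log2 fold change was -0.13 and -0.10. The adjusted p from limma was 0.712 and 0.541 in these 2 settings.

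The shares of the members in the family transcripts were compared next. The sum of CEBPA, CEBPB, CEBPD, CEBPE and CEBPG, a further family member without an activation domain, was 86.2 ± 1.79 FPKM (SD, n = 3) in the control and 86.4 ± 5.99 FPKM (SD, n = 3) in the I13 libraries. CEBPE made up 40.4 ± 2.27% and 38.7 ± 1.70% of this sum, CEBPD 31.8 ± 2.94% and 31.1 ± 1.64%, and CEBPG 13.9 ± 0.268% and 13.8 ± 2.22%. CEBPB made up 8.10 ± 0.770% and 10.05 ± 1.98%, and CEBPA 5.85 ± 1.31% and 6.39 ± 1.12% (SD, n = 3 each). The exact permutation test (two-sided, smallest possible p = 0.1) gave p-values between 0.3 (CEBPB) and 1 (CEBPG) for the shares. CEBPA was the smallest part of the family transcripts in the control mean and in the I13 mean.

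**Figure D3:**
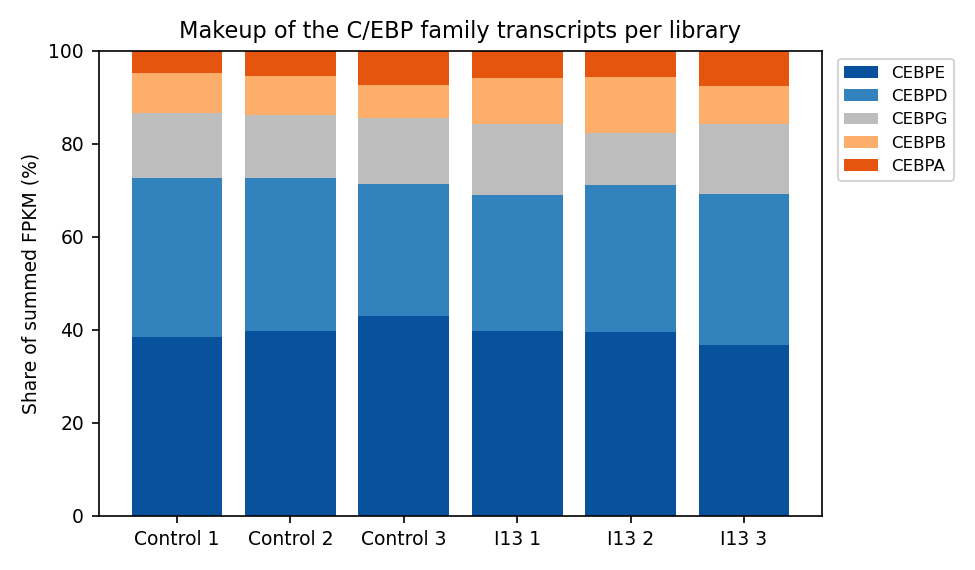
Share of each C/EBP gene in the summed FPKM of CEBPA, CEBPB, CEBPD, CEBPE and CEBPG (vertical axis, percent) in each of the 6 libraries. CEBPE and CEBPD make up most of the sum in every library, and the largest share of CEBPB, 12.1%, is in I13 replicate 2.

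GFI1 (ENSG00000162676) lies on chromosome 1 from 92474762 to 92486876. It had 154, 162 and 160.4 FPKM in the control and 146, 152 and 152 FPKM in the I13 libraries, from 7659 to 9187 fragments. Every I13 library was below every control library, by a small margin. The mean was 159 ± 4.49 FPKM (SD, n = 3) in the control and 150 ± 3.31 FPKM (SD, n = 3) in the I13 libraries, 5.64% lower. On the log2 scale the difference was -0.08 (standard error 0.044, adjusted p = 0.962 from limma), with an interval from 0.879-fold to 1.013-fold, and the exact permutation test gave p = 0.1, the smallest that 3 libraries against 3 allow. It was -0.08 within the 4 libraries and between control replicate 3 and I13 replicate 2 alike. GFI1 was the factor with the smallest spread between replicates, 2.83% of the mean in the control and 2.21% in the I13 libraries.

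IRF8 (ENSG00000140968) lies on chromosome 16 from 85898803 to 85922609. It had 1.09, 1.21 and 1.63 FPKM in the control and 0.876, 0.917 and 1.08 FPKM in the I13 libraries, with between 72 and 139 fragments. All I13 libraries were below the control libraries, but the highest I13 and the lowest control value nearly met. The mean was 1.31 ± 0.281 FPKM (SD, n = 3) in the control and 0.957 ± 0.106 FPKM (SD, n = 3) in the I13 libraries. This was the largest difference among the 9 factors by limma, -0.40 on the log2 scale (standard error 0.19, adjusted p = 0.954 by limma and 0.787 by voom). The interval ran from 0.556-fold to 1.03-fold, and the exact permutation test gave p = 0.1. The difference depended on control replicate 3, since it was -0.24 (log2) without that library, -0.22 within the 4 libraries and -0.76 between control replicate 3 and I13 replicate 2. Among the 11517 genes at a mean of 1 FPKM or more, the 3 with the profile nearest to that of IRF8 over the 6 libraries were AC008764.6, B3GNT8 and AL627309.7, with a root mean square difference of 0.072, 0.088 and 0.096 on the log2 scale.

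KLF4 (ENSG00000136826), on chromosome 9 from 107484852 to 107490482, was nearly silent. It had 0, 0 and 3 fragments in control replicates 1, 2 and 3 and 1, 0 and 0 fragments in I13 replicates 1, 2 and 3. The ratio at equal depth was 0.355, with a 95% interval from 0.00676 to 4.42 that covers counting error only. A difference between the groups was not detectable at this depth.

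MYB (ENSG00000118513) lies on chromosome 6 from 135181315 to 135219173. It had 70.1, 63.7 and 49.8 FPKM in the control and 59.4, 52.8 and 57.3 FPKM in the I13 libraries. Control replicate 3 was the lowest library of all and control replicates 1 and 2 were the highest, so that the I13 libraries lay inside the control range. The mean was 61.2 ± 10.4 FPKM (SD, n = 3) in the control and 56.5 ± 3.35 FPKM (SD, n = 3) in the I13 libraries, and the log2 difference was -0.10 (standard error 0.12, adjusted p = 0.995 by limma). The interval ran from 0.762-fold to 1.14-fold. Both libraries that stood apart were below the other 4, at 49.8 and 52.8 FPKM against 57.3 to 70.1 FPKM. The log2 difference was -0.24 with control replicate 3 left out (unadjusted p = 0.0198 and adjusted p = 0.688 from limma). Within the 4 libraries it was -0.20 (unadjusted p = 0.03996 and adjusted p = 0.557 from limma). Between control replicate 3 and I13 replicate 2 it was 0.08. The antisense gene MYB-AS1, which overlaps MYB, had between 0.979 and 2.19 FPKM. The libraries were made with a stranded kit, but whether the counting used the strand is not given in the sources used here.

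ID2 (ENSG00000115738) lies on chromosome 2 from 8678845 to 8684453. It had 3.82, 4.68 and 5.26 FPKM in the control and 5.24, 5.30 and 6.47 FPKM in the I13 libraries, with between 145 and 218 fragments. Control replicate 3 was just above the lowest I13 library, so the groups overlapped. The mean was 4.58 ± 0.723 FPKM (SD, n = 3) in the control and 5.67 ± 0.693 FPKM (SD, n = 3) in the I13 libraries, and the log2 difference was 0.31 (standard error 0.14, adjusted p = 0.947 by limma and 0.859 by voom). Its unadjusted p from limma was 0.0625, and it was 0.0348 without control replicate 3 (adjusted p = 0.734 from limma). It was higher by 0.45 (log2) within the 4 libraries and by 0.012 between control replicate 3 and I13 replicate 2.

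Some factors differed between the library pair and the rest. Control replicate 3 and I13 replicate 2 were both above the other 4 libraries for CEBPE (36.3 and 36.8 FPKM against 31.2 to 34.1 FPKM) and both below them for MYB. For CEBPA, CEBPD, CEBPE and MYB the difference between I13 and control had opposite signs within the 4 libraries and between these 2. It had the same sign in both for SPI1, GFI1, IRF8, CEBPB and ID2, of which CEBPB was near 0 in the 4 libraries and ID2 near 0 in the pair. The part of the library pair in the differences between groups was not tested further.

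**Figure D4:**
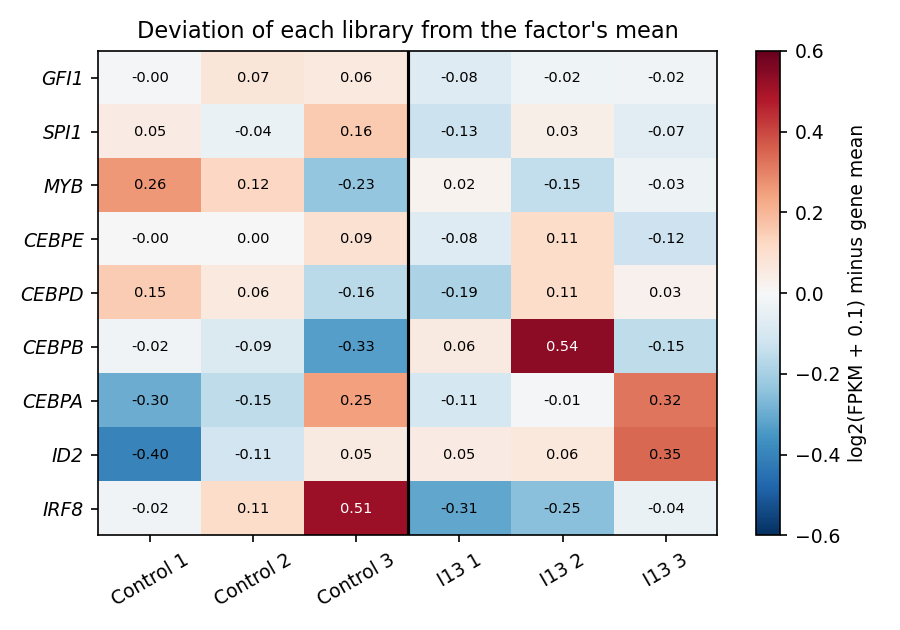
Deviation of log2(FPKM + 0.1) from the mean of the factor over 6 libraries, for the 9 factors tested (rows) in each library (columns), from blue (lower) to red (higher). The largest deviations are 0.54 for CEBPB in I13 replicate 2 and 0.51 for IRF8 in control replicate 3.

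Genes that work beside these factors or under them were taken from lists written from general knowledge, some genes of which are on more than 1 list. Of 50 other myeloid transcription factors, 40 were tested. The groups did not overlap for 3 of the 40, against 9.52% of all genes tested. None passed the adjusted p, 0 were higher and 4 were lower at the unadjusted p (limma calls 2.55% of all genes higher and 2.59% lower at that p), and the median log2 fold change was -0.01. FLI1, an ETS factor of blood progenitors, had 27.4, 26.2 and 25.2 FPKM in the control and 22.1, 21.2 and 23.1 FPKM in the I13 libraries. All I13 values of FLI1 were below the control values, 15.6% lower in the mean (log2 fold change -0.24, unadjusted p = 0.00331 and adjusted p = 0.669 by limma, standard error 0.056). Its log2 fold change was -0.24 within the 4 libraries and -0.25 between control replicate 3 and I13 replicate 2. The vitamin D receptor VDR, which takes part in monocyte maturation, had 4.82, 4.61 and 5.01 FPKM against 3.94, 4.19 and 4.19 FPKM, with an unadjusted p of 0.0208 from limma. IRF5 (16.7 ± 0.328 against 14.3 ± 1.21 FPKM, SD, n = 3) and ID1, a relative of ID2 (30.7 ± 3.10 against 24.7 ± 3.20 FPKM, SD, n = 3), had adjusted p-values of 0.875 and 0.901 from limma. ID1 and ID2 differed in direction, since the log2 fold change of ID1 was -0.32. When a library was left out, the unadjusted p of ID1 reached 0.101 (over 0.05 for control replicates 1 and 2 and I13 replicates 1 and 3), and it was 0.0521 for IRF5 without I13 replicate 3 and 0.0516 for VDR without I13 replicate 1. EGR1 (log2 fold change -0.39) and TFEC (0.20) had the lowest and the highest value among the genes of this list at a mean of 1 FPKM or more, with adjusted p-values of 0.983 each from limma.

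Of 24 genes that PU.1 activates, 19 were tested. At the unadjusted p 0 were higher and 4 lower, where limma calls 2.55% of all genes higher and 2.59% lower. The groups did not overlap for 7 of the 19, against 9.52% of all genes tested. Their median log2 fold change was -0.01 and their mean was -0.12, and the median was -0.14 for the members at a mean of 1 FPKM or more and -0.12 within the 4 libraries. By limma 0 passed the adjusted p and by voom 1 of 18 did, where voom calls 0.0433% of 13845 genes. CSF1R, the receptor of macrophage colony-stimulating factor, had 6.87, 6.13 and 6.97 FPKM in the control and 4.27, 5.07 and 5.17 FPKM in the I13 libraries. All I13 libraries were below the control libraries, 27.3% lower in the mean (log2 fold change -0.46, unadjusted p = 0.00244 and adjusted p = 0.583 by limma, 0.0936 by voom, standard error 0.099). The log2 fold change of CSF1R was -0.46 within the 4 libraries and -0.45 between control replicate 3 and I13 replicate 2. The kinase gene FES (27.0 ± 1.43 against 23.2 ± 1.47 FPKM, SD, n = 3) and CSF2RA, a receptor subunit for granulocyte-macrophage colony-stimulating factor (1.08 ± 0.0893 against 0.805 ± 0.0616 FPKM, SD, n = 3), were also lower in every I13 library, with adjusted p-values of 0.875 and 0.947 from limma. For CSF2RA it reached 0.109 (unadjusted, over 0.05 when control replicate 1 or 2 or one of I13 replicates 1 and 3 was absent). CTSS, a cathepsin of antigen-presenting cells, had the highest log2 fold change of the list among genes at a mean of 1 FPKM or more, and also of the monocytic genes below (0.14, adjusted p = 0.983 from limma).

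Of 24 genes that C/EBP factors activate, 5 were at 0 FPKM in every library, with or without I13. Of the 24, 14 were tested, and 0 passed the adjusted p by limma or voom. At the unadjusted p 2 were higher and 4 were lower, where limma calls 2.55% of all genes higher and 2.59% lower. The median log2 fold change was -0.12, and 10 of the 14 were below 0, while 51.8% of all genes tested were above 0. The groups did not overlap for 8 of the 14, against 9.52% of all genes tested. CSF3R, the receptor of granulocyte colony-stimulating factor, had 91.8, 91.0 and 91.0 FPKM in the control and 71.4, 78.4 and 78.2 FPKM in the I13 libraries. All I13 libraries were below the narrow range of the control, 16.7% lower in the mean (log2 fold change -0.27, unadjusted p = 0.00105 and adjusted p = 0.517 by limma, 0.0988 by voom, standard error 0.050). CTSG, the granule protease cathepsin G, was 192 ± 7.07 FPKM in the control and 158 ± 14.3 FPKM in the I13 libraries (SD, n = 3, adjusted p = 0.742 from limma). Lysozyme (LYZ) had 4.54, 4.79 and 5.65 FPKM in the control and 2.99, 2.99 and 3.78 FPKM in the I13 libraries. Its groups did not overlap, and the mean was 34.8% lower with I13 (log2 fold change -0.60, unadjusted p = 0.00216 and adjusted p = 0.57 by limma, standard error 0.13). SLPI, a protease inhibitor, had between 6 and 19 fragments and a log2 fold change of -0.78 (adjusted p = 0.875 from limma), with an unadjusted p of up to 0.0546 without control replicate 1 or 3.
Of the same list, the antigen genes ANPEP and CD33 had higher values with I13. ANPEP, which encodes CD13, had 22.9, 22.7 and 26.4 FPKM in the control and 32.0, 29.1 and 30.6 FPKM in the I13 libraries. All I13 libraries were above the control libraries, 27.5% higher in the mean (log2 fold change 0.35, standard error 0.073, adjusted p = 0.54 from limma and 0.0877 from voom). CD33, a sialic acid binding lectin of myeloid cells, was 11.5 ± 0.613 FPKM in the control and 13.2 ± 0.483 FPKM in the I13 libraries (SD, n = 3, adjusted p = 0.89 from limma), with an unadjusted p of 0.051 without I13 replicate 1.

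The genes under MYB, GFI1, IRF8 and KLF4 were read against the same shares of all genes, 2.55% higher and 2.59% lower at the unadjusted p and 9.52% with groups that did not overlap. All 12 genes that MYB activates were tested (median log2 difference 0.020), and 1 was higher and 0 were lower at the unadjusted p. This was BCL2, the survival gene (6.08 ± 0.315 against 7.45 ± 0.768 FPKM, SD, n = 3, adjusted p = 0.89 from limma), whose unadjusted p was up to 0.0698 without control replicate 2 or I13 replicate 1 or 3. The lowest log2 fold change of this list was -0.08, for SPN. Of 13 genes that GFI1 represses, 9 were tested (median log2 difference 0.06). ID1 was the 1 gene among them with an unadjusted p under 0.05, and ID2 and EGR1 were the highest and the lowest. Of 18 monocytic genes of IRF8 and KLF4, 9 were tested (median log2 difference -0.002). At the unadjusted p 1 was higher, CIITA, the class II transactivator (0.228 ± 0.0661 against 0.443 ± 0.10 FPKM, SD, n = 3), and 2 were lower, CSF1R and CST3, which encodes cystatin C (18.9 ± 1.19 against 16.5 ± 1.55 FPKM, SD, n = 3). The groups did not overlap for 4 of these 9, for 1 of the 12 MYB genes and for 0 of the 9 GFI1 genes tested. Both CIITA and CST3 had an adjusted p of 0.947 from limma. For CIITA, whose low level makes the pseudocount weigh more, the log2 fold change was 0.73 by limma and 0.97 by voom (unadjusted p = 0.000169, adjusted p = 0.117 by voom). For CST3 the adjusted p by voom was 0.781. Their unadjusted p was up to 0.104 for CIITA and 0.146 for CST3 with a library left out, and over 0.05 without any one of control replicates 1 and 2 and I13 replicate 1, and also without I13 replicate 2 for CIITA and without control replicate 3 or I13 replicate 3 for CST3. None of these 3 lists had a gene past the adjusted p by limma or voom.

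**Figure D5:**
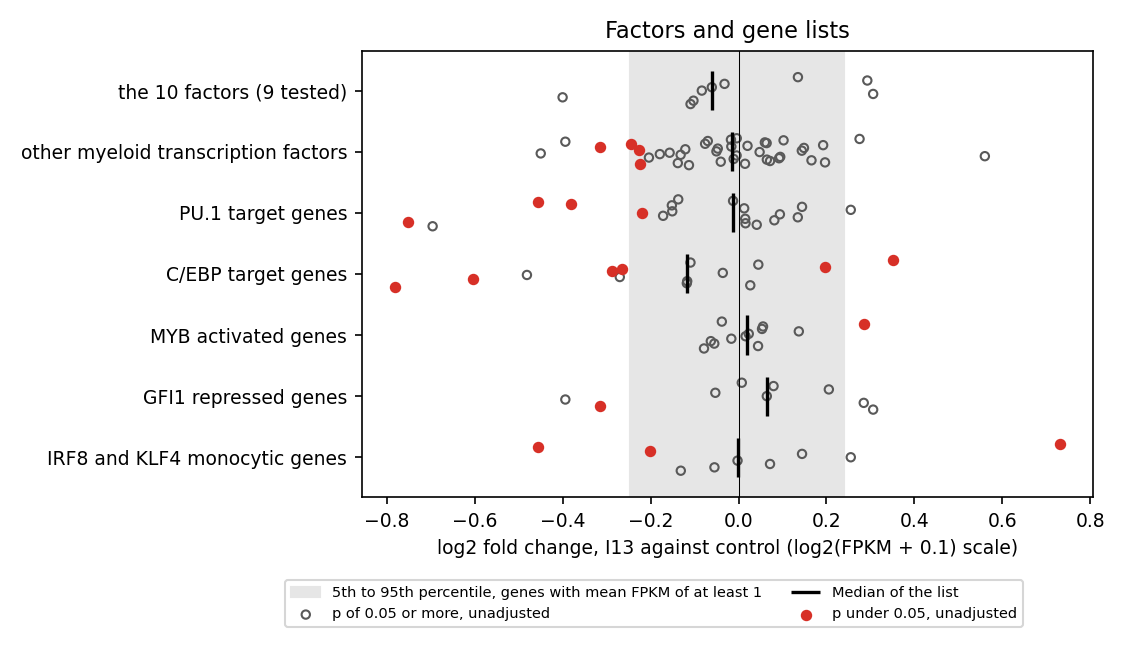
Log2 fold change of I13 against control (horizontal axis) for each gene tested in the 10 factors and in 6 lists (rows), with the median of each as a black line and genes with an unadjusted p under 0.05 in red. The grey band is the range from the 5th to the 95th percentile of the 11517 genes at a mean of 1 FPKM or more, from -0.25 to 0.24, and 6 of the 9 factors lie inside it. IRF8, CEBPB and ID2 lie outside it.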

How the data were processed

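Gene-level FPKM values of the 6 libraries (hg38) were deposited by the authors in 1 table. Their processing notes list Trimmomatic, HISAT2, Cufflinks and HTSeq, while their versions, the annotation and the strand setting were not given in the sources used here. Genes were named with GENCODE release 29 (32244 of 32364). With its exon lengths the FPKM values of 95.4% of 27002 genes gave whole fragments in all libraries (tolerance 0.01), and for 1315 genes fragments came from the step shared by their values. Expression was compared in R 4.3.3 with limma 3.58.1 (two-sided, variance trend, no block) on log2(FPKM + 0.1) where the mean was 0.1 FPKM or more, and by voom on fragments where it was 10 fragments or more. Calls needed an adjusted p under 0.05 and 0.58 on the log2 scale, the fold threshold of the study. Exact permutation tests and motif searches were run in Python 3.11.15. The scripts were tested on simulated data. Samples were grouped by their titles. The deviations of same-numbered libraries from their group means had correlations of 0.083, -0.070 and -0.017 over 11517 genes. Control replicate 3 and I13 replicate 2, which stood apart together, had 0.072, so this measure could not decide on pairing. The labels name no pairs, and the replicate number was not treated as a pair.
The factors, lists and alternatives were chosen with earlier results of these data known. The genes named are the 10 factors, the defining and other marker genes, every gene of a list with an unadjusted p under 0.05, the highest and lowest fold change of each list at a mean of 1 FPKM or more, overlapping genes and the 3 genes most like the factor with the largest difference. Values of some single genes under this rule are not reported here. Alternatives were other pseudocounts (1 and 0.01), filters, scalings, variance models, a block, each library left out and the library pair.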

Additional observations from a re-analysis of the deposited data

How the results depend on the processing

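Under 18 alternative settings 0 factors passed the adjusted p in any of them. Of 162 values of the 9 factors, 3 changed sign, all with a library left out, for CEBPD (range -0.12 to 0.054) and MYB (-0.24 to 0.0026). The number of factors with an unadjusted p under 0.05, which was 0, was 1 at a minimum mean FPKM of 1 (ID2), 1 with the replicate block (ID2), 1 with the term for the library pair (SPI1), 2 by voom (IRF8 and ID2), 2 within the 4 libraries (CEBPE and MYB), and between 0 and 2 with a library left out (MYB and ID2 without control replicate 3, CEBPE without I13 replicate 2). At the same p, limma had 963 of 18726 genes in the main fit, 582 of 11517 at a minimum mean FPKM of 1 and 862 of 18726 with the block. There were 1427 of 18726 with the pair term, 747 of 13845 by voom and 1607 of 18726 within the 4 libraries. Without control replicate 3 there were 1202 of 18726, and without I13 replicate 2 there were 1295 of 18726. The labels do not say whether the replicate numbers pair the libraries, and the block is given here alone. With it the unadjusted p of ID2 from limma was 0.0229. Over all genes, limma called 0 higher and 0 lower at the adjusted p and fold, limma without the trend 4 and 5, and voom 3 and 2, while limma without the trend and voom called 0 factors. At the unadjusted p and fold, 220 genes were higher and 225 lower. These counts were 72 and 62 with a pseudocount of 1, 59 and 60 at a minimum mean FPKM of 1, 115 and 99 by voom, and 152 and 147 at a log2 fold change of 1. They were between 224 and 282 higher and between 199 and 289 lower with a library left out, and 263 and 243 with the replicate block. The median log2 fold change at a minimum mean FPKM of 1 was -0.041 for the other factors, -0.14 for the PU.1 genes, 0.0073 for the GFI1 genes and -0.093 for the monocytic genes. Within the 4 libraries it was -0.12 for the PU.1 genes, -0.25 for the C/EBP genes, 0.10 for the GFI1 genes and 0.14 for the monocytic genes. With a library left out it was between -0.072 and -0.016 for the PU.1 genes, between -0.26 and -0.078 for the C/EBP genes, between -0.0092 and 0.077 for the GFI1 genes and between -0.12 and 0.20 for the monocytic genes. The cause of these shifts was not tested. The depth limits KLF4, with 0 to 3 fragments, most.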
